A study of Mus musculus with 37 samples.

Results

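The intercalated disc is the end-to-end junction between ventricular cardiomyocytes, and 10 genes of its adherens junction, desmosome and gap junction were followed across the 37 left ventricular libraries. They were taken by gene name from a deposited table of 56748 genes, and all 10 passed the filter on low values, as did 16579 genes of the table. Ctnna3 had been chosen by its low level in Arrest hearts on day 3 against Naïve hearts, and the other 9 genes were selected by their place in the disc. Levels are FPKM, the fragments counted on a gene scaled to its length and to a factor of the library. Differences are on the scale log2(FPKM + 1). The median ratio of the values to each gene's geometric mean was 1.0131 in every library. The deposited values thus carry a median-ratio scaling, and the factor need not follow the number of fragments counted.

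The hearts came from young adult male and female C57BL/6J mice, all of them anaesthetised with isoflurane. Naïve mice (5 libraries) had anaesthesia only and were not ventilated, and the 8 other groups, of 4 libraries each, were. Adr mice, which the labels call sham, received saline and later adrenaline into the left ventricle without arrest. Arrest mice received potassium chloride into the ventricle, stayed in asystole for some minutes, and were resuscitated with adrenaline and chest compressions. Hearts of survivors were taken 0.5, 1, 3 or 7 days later and the apex was discarded. Adr and Arrest groups therefore share ventilation, 2 ventricular injections and adrenaline, and differ in potassium chloride, asystole and compressions, while a comparison with Naïve includes all of these.

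In the disc, adherens junctions and desmosomes bind the actin and desmin filaments of neighbouring cardiomyocytes together, and gap junctions let the action potential pass from cell to cell. Alpha-catenins tie cadherin complexes to actin, and in the heart desmosomal and adherens components mix in the area composita. Inherited defects of desmosomal genes cause arrhythmogenic cardiomyopathy, and loss or relocation of connexin 43 slows conduction.

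The bases upstream of the start of Ctnna3, Dsp and Gja1 are shown because the results turn most on these 3 genes of the 5 that had a promoter in the RefSeq table used. The sequences are the 250 bases before a RefSeq start (build GRCm38.p6), written 5′ to 3′. Capitals mark a GC box (GGGCGG) or a GATA site (AGATAA) on either strand.
Ctnna3 (chr10:63429848-63430097, plus strand): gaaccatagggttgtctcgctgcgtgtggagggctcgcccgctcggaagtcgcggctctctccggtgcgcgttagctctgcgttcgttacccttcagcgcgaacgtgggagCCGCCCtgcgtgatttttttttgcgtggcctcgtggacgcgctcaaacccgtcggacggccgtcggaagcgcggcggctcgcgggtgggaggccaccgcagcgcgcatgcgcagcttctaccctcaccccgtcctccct
Dsp (chr13:38151044-38151293, plus strand): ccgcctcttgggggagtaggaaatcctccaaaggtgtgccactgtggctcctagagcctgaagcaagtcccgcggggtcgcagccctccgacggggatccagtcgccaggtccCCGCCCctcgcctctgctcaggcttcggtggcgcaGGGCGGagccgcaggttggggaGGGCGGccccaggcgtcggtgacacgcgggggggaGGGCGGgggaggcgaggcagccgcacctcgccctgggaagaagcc
Gja1 (chr10:56377050-56377299, plus strand): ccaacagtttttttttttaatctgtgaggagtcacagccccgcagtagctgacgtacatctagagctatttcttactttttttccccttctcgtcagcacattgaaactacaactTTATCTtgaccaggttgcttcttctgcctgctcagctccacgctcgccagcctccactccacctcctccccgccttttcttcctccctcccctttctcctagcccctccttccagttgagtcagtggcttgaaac
RefSeq lists 3 starts for Ctnna3 and the one shown is the most upstream. The deposited table gives 1 value per gene, so transcripts of the different starts cannot be told apart. The upstream bases of Dsp held 4 GC boxes and those of Ctnna3 held 1, ending 133 bases before the start, whereas 32.7% of 32851 promoters held any. Gja1 had no GC box and 1 GATA site, ending 129 bases before the start, which 9.99% of promoters had. Neither MEF2 nor CArG box letters were found on either strand of these 3 windows, against 2.92% and 1.47% of all promoters. The same search found no CCAAT (33.8% of promoters) and no TATAAA (12.4%) in them, and CANNTG (66.2% of promoters) only in Gja1, once. The bases that follow the listed Gja1 start were not found in a Gja1 transcript of the annotation used. A match or its absence is a description of these letters only.

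Libraries held 13197037 to 30179901 fragments counted on genes (median 14942320), which gave Ctnna3 between 126 and 635 fragments per library and Dsp between 4899 and 20345. The library farthest from the rest was Adr 3 d replicate 3. Genes of the mitochondrial genome took 9.36% of its fragments against 20.8% to 30.9% in the others. The summed FPKM of 10 cardiomyocyte markers was 4226 in it, against 15058 to 17605 in Naïve libraries and 9818 to 19967 in the remaining libraries. Its 7 leukocyte markers summed to 2215 (Naïve 269 to 474) and its 6 fibroblast markers to 819 (Naïve 226 to 303). All 10 disc genes lay below the other 3 libraries' mean in it, and 9 of the 10 were the lowest of the 4, compared with 30.3% of all tested genes. The differences and calls of the disc genes that rest on it are given with and without it. Arrest 3 d replicates 1 and 4 and Adr 3 d replicate 4 also had low sums of cardiomyocyte markers (9818, 11385 and 10213 FPKM) and high sums of leukocyte markers (704, 1007 and 571). The 4 atrial markers (Myl7, Myl4, Sln and Nppa) summed to 13.8 to 32.4 FPKM in Naïve, 30.0 to 693 in Adr 1 d, 29.1 to 198 in Adr 7 d and 16.9 to 256 in Arrest 7 d, with 0 of 4 past the limma threshold in each of these groups (3, 3 and 0 unadjusted) and Sln at 0 in 25 of the 37 libraries. On day 3 the atrial sum ran from 23.8 to 485 FPKM in Adr, with the 485 in replicate 3. In Arrest on day 3 it ran from 11.8 to 135 FPKM, with 98.7 in replicate 1 and 135 in replicate 4. The part of the cell type markers in the results was not tested. In bulk tissue, fewer cells of a type and less RNA per cell cannot be told apart.

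By mean level over all libraries, Ctnna1 (61.6 FPKM) and Dsp (61.2) led, followed by Jup (26.7), Gja1 (25.2), Pkp2 (23.4), Cdh2 (19), Tjp1 (11.5), Dsg2 (6.86), Dsc2 (5.37) and Ctnna3 (2.13).

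Ctnna3 encodes alpha-T-catenin, the heart and testis form that binds plakophilin 2 as well as actin. Naïve libraries held 3.20, 3.13, 2.79, 3.57 and 3.54 FPKM. In Adr hearts the values were 1.63, 1.70, 1.57 and 2.67 at 0.5 days, 2.34, 2.48, 1.56 and 2.01 at 1 day, 1.43, 2.34, 0.774 and 1.72 at 3 days, and 2.03, 2.47, 2.11 and 2.50 at 7 days. In Arrest hearts they were 1.34, 1.95, 1.68 and 1.46 at 0.5 days, 1.69, 1.40, 1.46 and 1.81 at 1 day, 1.17, 2.27, 1.65 and 1.29 at 3 days, and 2.69, 3.27, 3.05 and 3.00 at 7 days. All 28 libraries of the 7 groups other than Naïve and Arrest 7 d therefore lay below the lowest Naïve library, and only Arrest 7 d overlapped Naïve. The lowest Adr 3 d library is the one with 4226 FPKM of cardiomyocyte markers, and the lowest Arrest 3 d libraries, replicates 1 and 4, are those with 9818 and 11385.

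**Figure D1:**
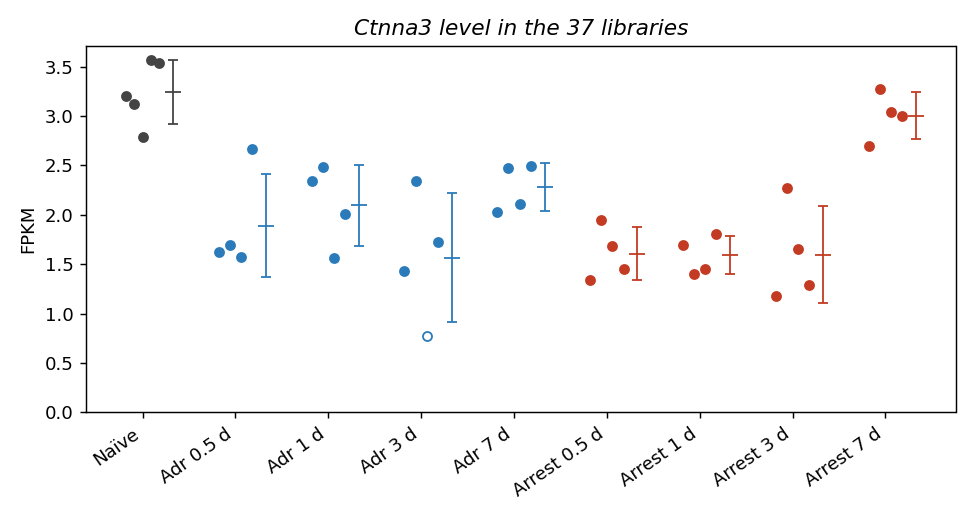
Ctnna3 level (FPKM, linear axis from 0) in each of the 37 libraries by group, with the group mean and SD beside the points and Adr 3 d replicate 3 as an open circle. Naïve libraries reach from 2.79 to 3.57 and Arrest 7 d from 2.69 to 3.27, while the highest of the other groups is 2.67.

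The mean was 3.25 ± 0.322 FPKM (SD, n = 5) in Naïve, 1.61 ± 0.267, 1.59 ± 0.192 and 1.60 ± 0.494 (n = 4 each) in Arrest at 0.5, 1 and 3 days, and 3.00 ± 0.239 at 7 days. In Adr it was 1.89 ± 0.521, 2.10 ± 0.410, 1.57 ± 0.650 and 2.28 ± 0.242 on days 0.5, 1, 3 and 7. The Adr 3 d mean was 1.83 ± 0.464 (n = 3) without replicate 3. Ordered by mean, the step from Arrest 7 d down to Adr 7 d (0.725 FPKM) was the 1 step larger than the SD of either neighbour, and the other 7 steps between neighbours did not exceed it. Adr 3 d is last in this order, and its mean without replicate 3 lies between those of Adr 0.5 d and Arrest 0.5 d.

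Against Naïve, Ctnna3 differed by -0.57, -0.46, -0.76 and -0.37 (SE 0.14 each) in Adr on days 0.5, 1, 3 and 7, and by -0.71, -0.71, -0.72 and -0.08 in Arrest. The Adr 3 d difference was -0.59 without replicate 3. These differences share the Naïve libraries by which Ctnna3 was chosen, so no test is attached to them and they are no support for its choice. Since 1 was added to a low value, the scale understates the change, and with 0.1 added the Arrest 3 d difference was -1.02.

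A test on the means of the 7 groups other than Naïve and Arrest 3 d asked whether the disc genes varied among them. Its spread was estimated from all 37 libraries, so the libraries by which Ctnna3 was chosen still enter it. Ctnna3 did (limma F = 5.07, adjusted p = 0.0445), as did 2.41% of all genes, and the other 9 disc genes did not pass, although Cdh2 and Gja1 had unadjusted p of 0.0162 and 0.0167 (0.00399 and 0.00534 without Adr 3 d replicate 3). With Adr 3 d replicate 3 left out, Ctnna3 (adjusted p = 0.0258) and Dsp (adjusted p = 0.0279) passed, against 3.65% of all genes. The Ctnna3 call was lost when any one of 23 libraries was left out (adjusted p from 0.0133 to 0.126 over the 37 fits), and with quantile normalization, an added constant of 0.1, no filter, removal of the length trend or the description number as a covariate.

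Ctnna1, the widely expressed alpha-catenin of adherens junctions, had a narrower range. Naïve libraries held 73.8, 73.9, 65.6, 64.8 and 67.2 FPKM. Adr libraries held 57.8, 64.3, 61.7 and 61.6 at 0.5 days, 62.5, 56.7, 62.7 and 53.9 at 1 day, 66.4, 66.4, 41.6 and 48.1 at 3 days, and 61.8, 63.4, 61.8 and 65.2 at 7 days. Arrest libraries held 53.2, 64.3, 60.9 and 58.9 at 0.5 days, 58.4, 57.1, 62.7 and 62.2 at 1 day, 61.8, 56.2, 59.9 and 55.9 at 3 days, and 64.5, 61.3, 68.1 and 70.7 at 7 days. The 0.5 d and 1 d groups of either arm, and Arrest 3 d, lay wholly below Naïve, and the other groups overlapped it. The differences from Naïve were small, from -0.33 to -0.06 with SE 0.10 (the -0.33 of Adr 3 d was -0.21 without replicate 3), and none that was tested passed the threshold.

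Together these 2 genes gave a share of alpha-T-catenin message that does not depend on the scaling of a library. Ctnna3 made up 4.50% ± 0.564 (SD, n = 5) of the summed FPKM of Ctnna3 and Ctnna1 in Naïve. The share was 2.99% ± 0.785, 3.46% ± 0.741, 2.70% ± 0.852 and 3.48% ± 0.283 in Adr on days 0.5, 1, 3 and 7, and 2.99% ± 0.761 (n = 3) at 3 days without replicate 3. In Arrest it was 2.63% ± 0.241, 2.58% ± 0.285, 2.67% ± 0.876 and 4.36% ± 0.488. The lowest Naïve share was 4.06%. Arrest 7 d reached from 4.01% to 5.07%, and of the other groups only the highest libraries of Adr 0.5 d (4.15%) and Adr 1 d (4.20%) came above the lowest Naïve library. As Ctnna3 enters the share, this too is a description.

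**Figure D2:**
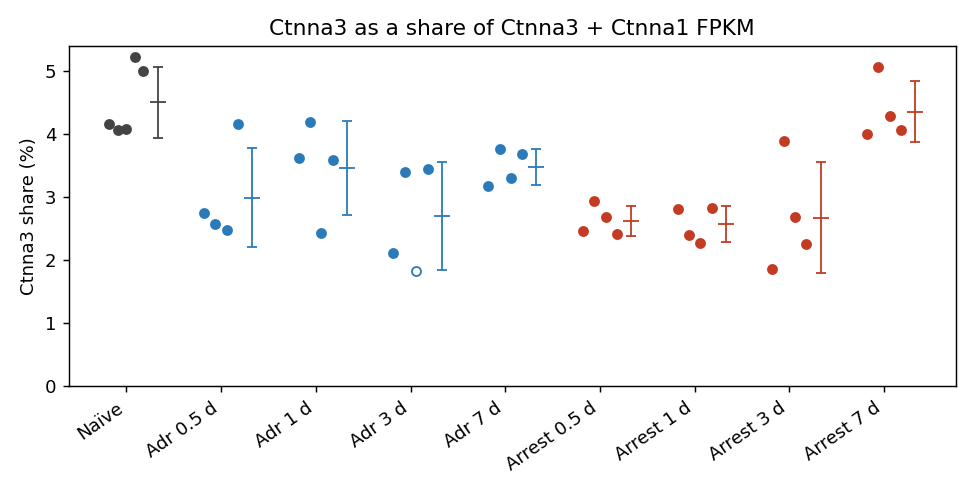
Share of Ctnna3 in the summed FPKM of Ctnna3 and Ctnna1 (percent, axis from 0) in each library, with the group mean and SD and Adr 3 d replicate 3 as an open circle. Group means lie at 4.50% in Naïve and 4.36% in Arrest 7 d and between 2.58% and 3.48% in the others.

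Cdh2 encodes N-cadherin, the classical cadherin that spans the gap between cardiomyocytes. Naïve libraries held 22.1, 26.7, 22.4, 16.8 and 24.7 FPKM. In Adr the values were 17.3, 18.5, 17.3 and 18.6 at 0.5 days, 16.9, 16.8, 13.6 and 16.8 at 1 day, 20.9, 23.6, 9.93 and 13.2 at 3 days, and 16.1, 21, 21.6 and 21.8 at 7 days. In Arrest they were 14.0, 20.4, 17.7 and 19.4 at 0.5 days, 13.2, 16.6, 14.0 and 14.2 at 1 day, 22.5, 22.7, 21.1 and 17.8 at 3 days, and 23.1, 20.2, 26.9 and 22.7 at 7 days. All 4 Arrest 1 d libraries lay below all 5 Naïve libraries, and every other group overlapped Naïve.

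At 1 day after arrest Cdh2 fell by 0.59 (SE 0.16, limma adjusted p = 0.0235), a mean 35.6% lower than Naïve. The adjusted p was 0.00547 without Adr 3 d replicate 3. In Adr at 1 day the difference was -0.46 (SE 0.16, adjusted p = 0.169). The Arrest 1 d call was lost without Naïve replicate 2 or 5 or without Arrest 1 d replicate 1 or 3 (adjusted p up to 0.0792).

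Dsp is 1 of the 5 desmosomal genes and encodes desmoplakin, the plakin that anchors desmosomes to desmin. Naïve libraries held 71.6, 79.5, 80.6, 78.8 and 79.8 FPKM. Adr libraries held 51.8, 50.9, 42.5 and 66.0 at 0.5 days, 46.6, 51.2, 54.7 and 59.8 at 1 day, 70.0, 63.3, 21 and 59.1 at 3 days, and 52.2, 63.8, 76.6 and 78.3 at 7 days. Arrest libraries held 47.1, 47.9, 48.2 and 47.3 at 0.5 days, 47.0, 47.5, 52.7 and 60.8 at 1 day, 74.0, 80.9, 66.7 and 50.9 at 3 days, and 71.4, 60.7, 89.5 and 71.9 at 7 days. Adr at 0.5, 1 and 3 days and Arrest at 0.5 and 1 day lay wholly below Naïve, and the 7 d groups and Arrest 3 d overlapped it.

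The 4 Arrest 0.5 d libraries had an SD of 0.506 FPKM around a mean of 47.6, which was 39.0% below the Naïve mean of 78.0 ± 3.67. With all libraries no Dsp difference passed, with -0.70 (SE 0.21, limma adjusted p = 0.0560) in Arrest 0.5 d and -0.58 (adjusted p = 0.0815) in Arrest 1 d. When Adr 3 d replicate 3 was left out the common spread was smaller (SE 0.13) and Dsp fell by 0.57 in Adr 0.5 d (adjusted p = 0.0230), by 0.55 in Adr 1 d (0.0213), by 0.70 in Arrest 0.5 d (0.00191) and by 0.58 in Arrest 1 d (0.00396). The log2 differences in these 4 groups are the same in both fits, since the library is in none of them. Beside the fit on all libraries, 13 other settings gave Dsp differences from -0.78 to -0.11 in Arrest 1 d (limma adjusted p up to 0.924). In Adr 1 d they ran from -0.64 to -0.23 (up to 0.838) and in Adr 0.5 d from -0.70 to -0.47 (up to 0.370). In Arrest 0.5 d they ran from -0.85 to -0.54 (up to 0.174).

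The remaining desmosomal genes gave no call. Dsg2 and Dsc2 encode the desmosomal cadherins, and their means moved from 8.20 ± 0.755 and 6.51 ± 1.85 FPKM in Naïve to between 5.84 and 8.08 and between 4.59 and 5.76 in the other groups. Dsg2 lay wholly below Naïve in Adr 0.5 d, Adr 7 d and Arrest 1 d. Jup (plakoglobin, the armadillo protein shared by desmosome and adherens junction) had means from 24.8 to 29.2 and overlapped Naïve in all 8 groups. Pkp2, the plakophilin that links desmosomal cadherins to desmoplakin and the most often mutated gene of arrhythmogenic cardiomyopathy, was the 1 disc gene with an early Arrest mean above Naïve. It averaged 25.8 ± 3.36 and 27.5 ± 3.17 FPKM in Arrest at 0.5 and 1 day against 23.3 ± 2.63 in Naïve, differences of 0.14 and 0.23 (SE 0.18, adjusted p = 0.728 and 0.480).

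Gja1 encodes connexin 43, the main gap junction protein of working ventricle. Naïve libraries held 29.1, 31.6, 32.3, 32.8 and 33.6 FPKM. In Adr the values were 25.5, 27.5, 11.2 and 10.8 at 0.5 days, 25.4, 23.4, 15.9 and 15.2 at 1 day, 35, 27.4, 14.8 and 24.8 at 3 days, and 27.9, 26.5, 33.8 and 32.3 at 7 days. In Arrest they were 23.3, 15.4, 31.0 and 29.6 at 0.5 days, 12.7, 17.2, 12.8 and 27.2 at 1 day, 18.3, 32.1, 28.2 and 28.4 at 3 days, and 28.4, 25, 34.5 and 31.7 at 7 days. Adr at 0.5 and 1 day and Arrest at 1 day lay wholly below Naïve, but within them the libraries spread widely, and at Adr 0.5 d they formed a pair above 25 and a pair near 11.

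Gja1 fell by 0.89 in Arrest 1 d (SE 0.26, limma adjusted p = 0.0291), the mean being 45.1% lower than Naïve, and the adjusted p was 0.0158 without Adr 3 d replicate 3. Adr 0.5 d and Adr 1 d differed by -0.86 and -0.68 (SE 0.26, adjusted p = 0.122 and 0.197). The Arrest 1 d call was lost without Naïve replicate 5 or without Arrest 1 d replicate 1, 2 or 3 (adjusted p up to 0.125). Tjp1, the ZO-1 scaffold that borders gap junction plaques, held 12.2 to 14.4 FPKM in Naïve and lay wholly below it in Adr 7 d, Arrest 0.5 d and Arrest 1 d, by -0.18, -0.27 and -0.26 (SE 0.11), none past the threshold.

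**Figure D3:**
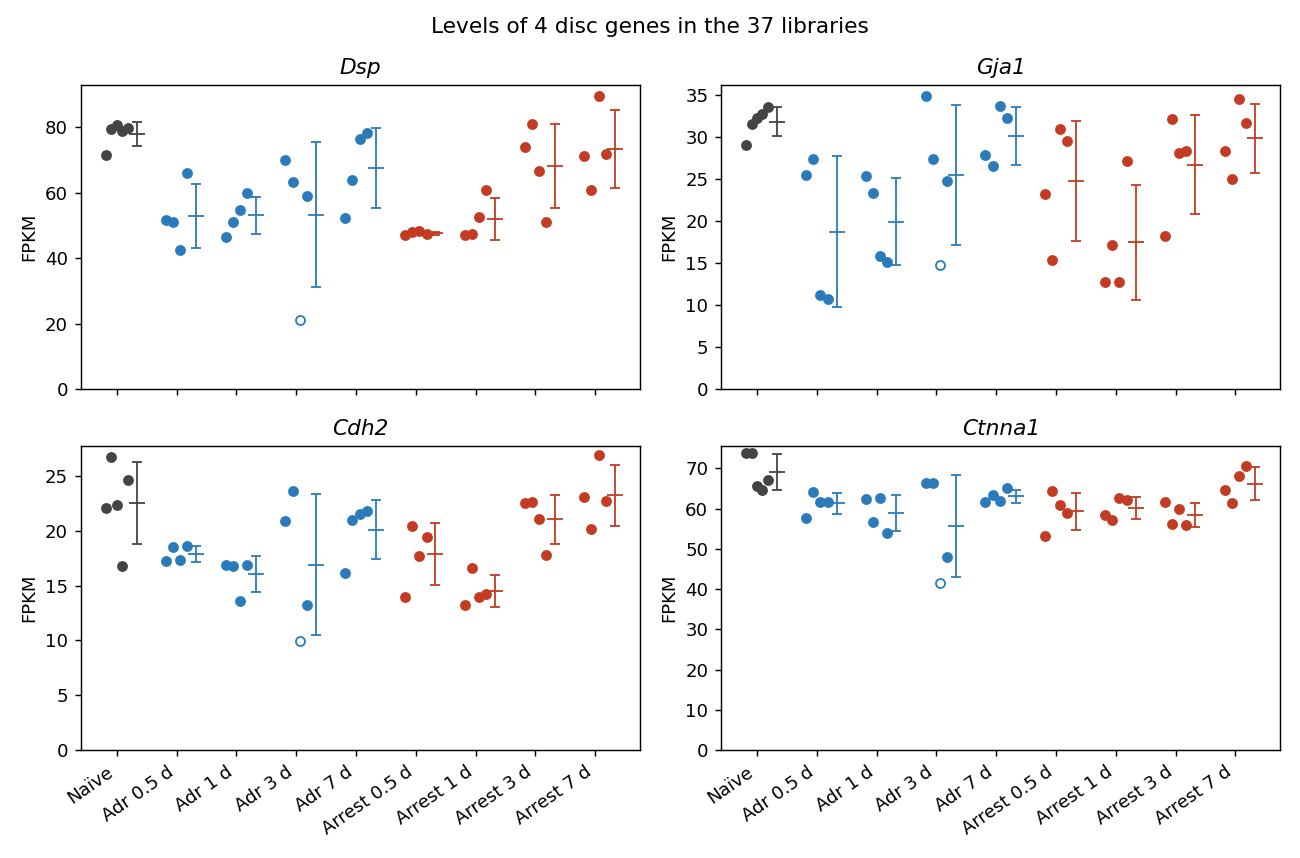
Levels of Dsp, Gja1, Cdh2 and Ctnna1 (FPKM, linear axes from 0) in each of the 37 libraries by group, with the group mean and SD and Adr 3 d replicate 3 as an open circle. For Dsp the 4 Arrest 0.5 d libraries lie between 47.1 and 48.2, below the lowest Naïve library at 71.6, while Gja1 spreads from 10.8 to 27.5 within Adr 0.5 d.

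Taking the 10 genes as a list, the median difference from Naïve was -0.35, -0.38, -0.39 and -0.17 in Adr on days 0.5, 1, 3 and 7 and -0.25, -0.31, -0.18 and -0.09 in Arrest, beside medians of 0.01 to 0.04 over all tested genes. The Adr 3 d median was -0.15 without replicate 3. In the same comparisons, 10, 9, 10 and 10 of the 10 genes were below 0 in Adr and 9, 9, 10 and 8 in Arrest, whereas 43.6% to 46.6% of all genes were. Ctnna3, chosen for its low level in Arrest 3 d against Naïve, is in these medians and counts, and all of them share the Naïve libraries. All 10 are longer than most genes, with 5277 to 10257 bases, and the 3905 tested genes in that range of length had medians from -0.05 to -0.0033.

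By the count of genes whose libraries all lay below every Naïve library, 5, 4, 2 and 3 of the 10 did so in Adr on days 0.5, 1, 3 and 7, against 2.96%, 2.73%, 1.08% and 0.85% of all tested genes. In Arrest the counts were 4, 7, 2 and 0, against 3.7%, 4.8%, 1.77% and 0.657%. The 7 genes of Arrest 1 d were Ctnna3, Ctnna1, Cdh2, Dsp, Dsg2, Gja1 and Tjp1, leaving Dsc2, Jup and Pkp2. Ctnna3 is in each of these counts except Arrest 7 d, and was chosen for its place below Naïve at Arrest 3 d.

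Of the 9 genes other than Ctnna3, limma called 0 in Adr on days 0.5, 1, 3 and 7, where 0.187%, 0.627%, 0% and 0% of all genes were called. At an unadjusted p under 0.05 there were 2, 5, 4 and 0 of the 9, and 14%, 14.7%, 13.9% and 6.17% of all genes. Leaving out Adr 3 d replicate 3 gave 5, 5, 1 and 1 of the 9 at that level, and 16.1%, 17.5%, 7.29% and 7.19% of all genes. In Arrest limma called 0 of 9 at 0.5 days (3.2% of all genes), 2 of 9 at 1 day (7.11%) and 0 of 9 at 7 days (0%). At the unadjusted level there were 3, 4 and 0 of the 9, and 18.1%, 21.7% and 5.14% of all genes. Without Adr 3 d replicate 3 these were 4, 6 and 0 of the 9, and 20.4%, 24.2% and 5.95% of all genes. The adjusted counts without Adr 3 d replicate 3 were 1 at Adr 0.5 d (1.35% of all genes), 1 at Adr 1 d (2.5%), 1 at Arrest 0.5 d (5.49%), 3 at Arrest 1 d (10.3%) and 0 in the other groups tested (0%). Limma voom on recovered fragments, with all libraries, called 2 of the 9 at Arrest 1 d and 0 in the other groups tested. The share of all genes that voom called was not computed, so its counts cannot be set against one. The comparisons share the 5 Naïve libraries.

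In Arrest 1 d the 10 cardiomyocyte markers summed to 16910 to 19967 FPKM (Naïve 15058 to 17605). None of the 10 passed the limma threshold (2 at an unadjusted p under 0.05, beside 21.7% of all genes). Without Adr 3 d replicate 3 Ryr2 and Ttn fell (7 unadjusted, beside 24.2% of all genes). Its 7 leukocyte markers summed to 268 to 402 FPKM (Naïve 269 to 474), but their mean log2 level, which weights the markers equally, was 0.30 to 0.87 above Naïve in the 4 libraries, with 0 of 7 past the threshold (1 unadjusted). Of 6 endothelial markers Egfl7 rose and Cdh5 and Kdr fell, and of 5 mural and smooth muscle markers Myh11 fell. The part of these markers in the Cdh2 and Gja1 differences was not tested. The calls also stood beside 2 measures that moved with the groups, each of which was entered in a fit. Long genes were higher in Naïve libraries: the rank correlation across genes between length and a library's deviation from the mean profile averaged 0.22 in Naïve, -0.07 in Arrest 1 d, -0.08 in Adr 0.5 d, 0.17 in Adr 7 d and 0.15 in Arrest 7 d. With each library's length trend removed, Cdh2 and Gja1 differed by -0.52 and -0.79 in Arrest 1 d (limma adjusted p = 0.0619 and 0.0747). The number in the sample description ran from 116 to 127 in Naïve and from 70 to 95 in Arrest 1 d, without overlap. It also lay wholly below Naïve in Adr 1 d (71 to 102), Adr 3 d (63 to 87), Adr 7 d (92 to 115) and Arrest 3 d (90 to 112). The number and the group cannot be told apart in these comparisons with Naïve. As a covariate the number left Cdh2 and Gja1 differences of -0.51 and -0.54 in Arrest 1 d (limma adjusted p = 0.376 and 0.580).

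**Figure D4:**
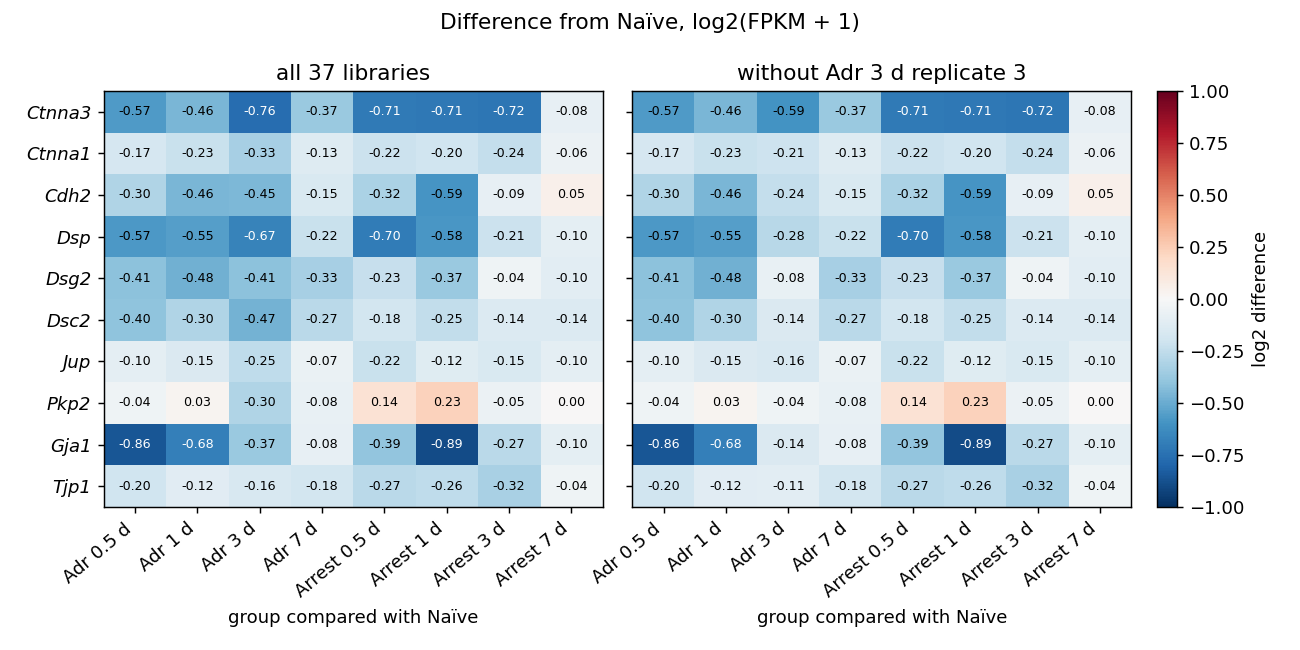
Difference from Naïve in log2(FPKM + 1) for the 10 disc genes (rows) and the 8 other groups (columns), with all 37 libraries at the left and without Adr 3 d replicate 3 at the right. Only the Adr 3 d column changes, where Dsp moves from -0.67 to -0.28, and only Pkp2 exceeds 0.1, in Arrest at 0.5 and 1 day.

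Arrest was also set against Adr of the same day, a difference that does not include the Naïve mean. Both arms had injections and adrenaline, and the spread was again estimated from all libraries of the fit. Ctnna3 on day 3 is left out of the tests, because its Arrest 3 d values chose it. None of the 10 genes (9 on day 3) passed on days 0.5, 1, 3 or 7 by limma (0%, 0%, 0% and 0.00603% of all genes; 0%, 0%, 0% and 0% without Adr 3 d replicate 3) or by voom. At an unadjusted p under 0.05 there were 0, 0, 2 (Cdh2 and Dsp) and 0, and 3.87%, 6.59%, 5.37% and 2.53% of all genes. Leaving out Adr 3 d replicate 3 gave 0, 0, 0 and 1 (Ctnna3), and 4.67%, 8.45%, 5.69% and 3.15% of all genes. Their median differences were -0.033, -0.0033, 0.18 and 0.12, and 0.18 became -0.0059 without Adr 3 d replicate 3. Ctnna3 differed by -0.14 (95% interval -0.45 to 0.17) at 0.5 days, -0.25 (-0.56 to 0.06) at 1 day and 0.29 (-0.02 to 0.60, adjusted p = 1) at 7 days. The same differences had intervals of -0.41 to 0.13, -0.52 to 0.02 and 0.02 to 0.56 without Adr 3 d replicate 3, so the day 7 interval then excluded 0 (unadjusted p = 0.0384, adjusted p = 1). On day 3 the difference was 0.04 (-0.13 without replicate 3), as a description. At 7 days all 4 Arrest libraries (2.69 to 3.27 FPKM) lay above all 4 Adr libraries (2.03 to 2.50), in groups whose atrial markers summed to 16.9 to 256 and 29.1 to 198 FPKM. The median difference of the atrial markers between them was -1.27, with 0 of 4 past the threshold (0 unadjusted). An interaction F-test of whether the Arrest-Adr difference changed over the days draws on Arrest 3 d, so it is given for the 9 other genes. It called 0 of them (0% of all genes with or without Adr 3 d replicate 3), with 0 at the unadjusted level in both fits and 0 by voom.

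Within groups, the 10 genes were compared by their deviations from the group means. Over 37 libraries the 45 pairs had a median Pearson r of 0.37, and 43 were positive. The median was 0.16 and 36 were positive without Adr 3 d replicate 3. In the 36 libraries Cdh2 with Jup (0.64) and Cdh2 with Ctnna1 (0.61), partners in the cadherin-catenin complex, were the highest pairs, followed by Jup with Ctnna1 (0.55). Ctnna3 reached 0.30 with Dsp and 0.27 with Cdh2, and Gja1 with Tjp1 was lowest (-0.44). The points share libraries, with their depth and RNA, so these are descriptions.

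**Figure D5:**
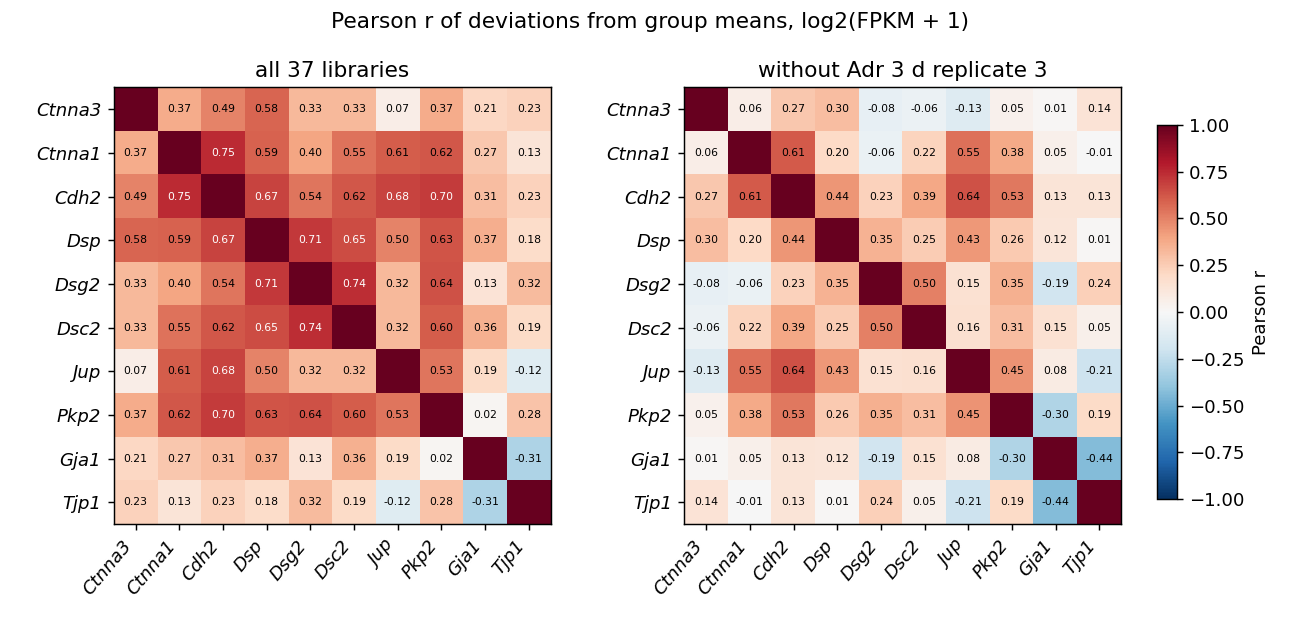
Pearson r between the 10 disc genes of deviations from group means in log2(FPKM + 1), with all 37 libraries at the left and 36 without Adr 3 d replicate 3 at the right. Most cells pale at the right, while Cdh2 keeps 0.64 with Jup and 0.61 with Ctnna1.

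Across all 37 libraries, the 5 genes of 11548 whose levels followed Ctnna3 most closely were Ppp1r12b (r = 0.83, a myosin phosphatase subunit), Hif1an (0.82, the asparagine hydroxylase of hypoxia-inducible factor), Zbtb20 (0.80, a zinc finger repressor), Huwe1 (0.79, a ubiquitin ligase) and Cyfip2 (0.78, a member of the WAVE complex). They were 0.80, 0.79, 0.80, 0.78 and 0.74 in the 36 libraries other than Adr 3 d replicate 3. Group differences enter these values. On deviations from the group means over all 37 libraries they were 0.72, 0.75, 0.55, 0.37 and 0.67. For these 5 genes such values without Adr 3 d replicate 3 are not given. For Dsp with Ctnna3 the value on deviations was 0.58 over 37 libraries and 0.30 without that library. Of the disc genes, Dsp came closest by level (r = 0.69, rank 62, 0.62 in the 36 libraries) and Pkp2 least (0.18, and -0.12), against a 95th percentile of 0.52 over all genes compared. The 5 genes named first are 14983, 6606, 30730, 23507 and 7103 bases long, and Ctnna3 is 7227. Long genes were higher in Naïve libraries, and the part of length in these r values was not tested.

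The neighbours of these proteins were followed in 4 further lists of 56 genes of the junctions and their anchors, of which 46 were tested. Limma called 0 of them in Adr at the 4 times, with 11, 6, 12 and 1 at an unadjusted p under 0.05 (13, 9, 2 and 1 without Adr 3 d replicate 3), beside 14%, 14.7%, 13.9% and 6.17% of all genes (16.1%, 17.5%, 7.29% and 7.19%). It called 0 in Arrest 7 d (0 unadjusted) and between Arrest and Adr (0, 3, 7 and 0 unadjusted, and 1, 3, 1 and 0 without that library), and voom was not run on them. Arrest 3 d against Naïve, the contrast that chose Ctnna3, is used for them only as a description. In Arrest 0.5 d, where 3.2% of all genes were called, 1 rose and 2 fell. Krt8, a simple-epithelial keratin, rose from 2.58 ± 1.99 to 14.6 ± 8.65 FPKM (log2 difference 2.14, adjusted p = 0.0371). Tln2, a talin that links integrins to actin, fell by 0.48 (adjusted p = 0.0398), and Ank2, the ankyrin that anchors ion transporters, fell by 0.54 (0.0465). The libraries of Krt8 lay wholly above and those of Tln2 wholly below Naïve, and those of Ank2 overlapped it. The 7 epithelial, mesothelial and fat cell markers summed to 27.7 to 72.9 FPKM in Arrest 0.5 d and 7.13 to 57.8 in Naïve, with 0 of the 5 tested past the threshold, and Epcam and Cdh1 were at 0 in 27 and 23 of the 37 libraries. Their part in the Krt8 difference was not tested.

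In Arrest 1 d, where 7.11% of all genes were called, 1 of the 46 rose and 6 fell. Cav3, the caveolin of muscle, rose from 40.6 ± 9.73 to 72.2 ± 18.2 FPKM (log2 difference 0.81, limma adjusted p = 0.0197). Scn4b, a sodium channel beta subunit, fell by 1.10 (0.0417), Gja3, connexin 46, by 1.02 (0.00601) and Ank2 by 0.71 (0.00545). The other falls were Ctnnb1, Vcl and Tln2. Without Adr 3 d replicate 3 there were 2 falls in Adr 1 d, where 2.5% of all genes were called (Vcl by 0.50, adjusted p = 0.0449, and Ank2 by 0.47, 0.0499), 1 rise and 3 falls in Arrest 0.5 d (5.49%) and 1 rise and 7 falls in Arrest 1 d (10.3%). In Arrest 3 d, as a description, Vcl averaged 4.27 ± 0.490 FPKM against 6.99 ± 1.63 in Naïve. It is named because the threshold on this contrast picked it alone of the 46 without Adr 3 d replicate 3, so no p-value is attached to it. In that fit the threshold picked 111 rises and 75 falls among the 16579 tested genes. With all libraries it picked 0 of the 46. Vcl is vinculin, which binds alpha-catenins. Ctnna2, the neural alpha-catenin, was at 0 in 33 of 37 libraries and reached at most 0.125 FPKM, and Dsc1, Dsc3, Dsg3 and Pkp1 stayed under 0.198 FPKM.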

How the data were processed

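RNA of left ventricle was sequenced, aligned by the authors with HISAT2, and deposited as FPKM per gene with gene lengths; the build, counter and strand setting are not given in the sources used here. Multiplying by length showed every value (100%, tolerance 0.1) to be a whole number of fragments, which gave the depth of each library. From the FPKM, log2(FPKM + 1) was computed, the 16579 genes reaching 0.5 FPKM in 4 or more libraries were kept, and limma 3.58.1 (R 4.3.3, eBayes with trend) was fitted with 1 mean per group. P-values were adjusted by Benjamini-Hochberg over all genes of a comparison (threshold 0.05). The fit was also run on simulated fragments with the same dispersion for every gene. These had no length trend and no library unlike the rest of its group, so that run cannot check the fit for such features.

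The genes and lists were chosen with earlier results of these data known. Values of every library are given for Ctnna3, Ctnna1, Gja1 and any disc gene past the threshold with or without Adr 3 d replicate 3. The 5 genes most like Ctnna3 had a mean of at least 1 FPKM, and up to 3 rises and 3 falls per comparison are given with values from the junction lists. The study left out 1 Adr library of day 3 that the labels do not mark; all 37 were kept here. The labels do not say whether replicates are separate mice, so p-values measure the spread between these libraries. Same-numbered libraries did not deviate together (median r -0.0011 over 48 pairs). Alternatives were other scalings, constants, filters and covariates, a replicate block, voom and leaving out each library. Gene coordinates of the table equalled those of GRCm38 for 1435 of 52073 genes and are not printed. Figures were drawn with matplotlib 3.10.9.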

Additional observations from a re-analysis of the deposited data

Results flagged for a closer look

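Each of the 90 combinations of the 10 genes and 9 groups was searched for a library far from the others of its group, and 9 had one, where chance flags about 1 in 20 groups. Ctnna3 was 2.67 FPKM in Adr 0.5 d replicate 4, with the others from 1.57 to 1.70. Cdh2 was 13.6 FPKM in Adr 1 d replicate 3 (others 16.8 to 16.9) and 16.1 in Adr 7 d replicate 1 (others 21 to 21.8). Jup was low in that same Adr 7 d library, at 21.7 FPKM (others 29.4 to 30.5). Dsp was 71.6 FPKM in Naïve replicate 1 (others 78.8 to 80.6), and Tjp1 was 14.4 in Naïve replicate 5 (others 12.2 to 12.8). Dsc2 was 1.65 FPKM in Adr 3 d replicate 3 (others 5.54 to 5.85), the library with 9.36% mitochondrial fragments. Pkp2 was high, at 29.5 FPKM, in Adr 1 d replicate 4 (others 21.5 to 22.8) and at 24.5 in Adr 7 d replicate 4 (others 20.8 to 21.4).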

How the results depend on the processing

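Counts past the threshold were low and moved with the setting, and where not said otherwise the cause was not tested. The share of all genes called was computed only for the main fit and the fit without Adr 3 d replicate 3. Counts under the other settings therefore have no such share beside them. Of the 9 genes other than Ctnna3, Arrest 1 d gave 2, but 4 with quantile normalization, 1 without a filter, and 0 with the length trend removed, the description number as covariate or the replicate block, and 0 to 3 with 1 library left out (1 without Naïve replicate 2 or Arrest 1 d replicate 2, 0 without Naïve replicate 5 or Arrest 1 d replicate 1 or 3). Under the block, Cdh2 and Gja1 differed by -0.56 (limma adjusted p = 0.0545) and -0.88 (0.0700), and the numbers do not pair the libraries. Arrest 0.5 d gave 0, but 1 (Dsp) with quantile normalization, scaling by counted fragments, a mean of at least 1 FPKM, sample weights, sex (read from Xist against Ddx3y) as covariate, chosen after seeing the data, or only the 2 groups, and 0 to 1 with 1 library left out (1 without Adr 3 d replicate 1 or 3). By that reading Naïve held 3 females and 2 males, Arrest 7 d 3 and 1, and each other group 2 and 2. Adr 0.5 d gave 0, but 1 with sample weights, and both it and Adr 1 d (also 0) gave 0 to 1 with 1 library left out (1 without Adr 3 d replicate 3). The F-test over 7 groups gave 1, but 0 with quantile normalization, an added constant of 0.1, no filter, the length trend removed or the description number, 4 with sample weights, and 0 to 2 with 1 library left out, where it kept 1 or more without any of 14 libraries. Those were Naïve replicates 3 and 4, Adr 0.5 d replicate 4, Adr 1 d replicates 1 to 3, Adr 3 d replicates 2 to 4, Arrest 0.5 d replicate 2, Arrest 1 d replicate 4 and Arrest 3 d replicates 1, 2 and 4. The median difference of the 10 genes moved by more than the spread between libraries (0.19) in Adr 3 d against Naïve, to -0.20 with sample weights and from -0.52 to -0.15 with 1 library left out, and in Arrest 3 d against Adr 3 d, from 0.18 to -0.026 with sample weights. The median-ratio factor, also chosen after seeing the data, moved no count. It was the same for every library, so it left relative levels as they were and could not test the scaling. No result changed direction while called, and the fit of only 2 groups gives no F-test. Fragments per library limit Ctnna3 most, which had 126 to 635.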
